A study of Mus musculus with 6 samples.

Results

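Chemokines and their receptors were followed in the brown adipose tissue (BAT) of 3 sST2-KO mice and 3 WT littermates. The family was taken as every row of the count table whose symbol names a CC, CXC, CX3C or XC chemokine, one of their receptors or an atypical chemokine receptor, with at least 10 counts summed over the 6 libraries. Of 62 rows with such a symbol, 47 passed this minimum, 30 of them ligands and 17 receptors, out of 35976 genes listed. The mice were 10-week-old males on the C57BL/6J background, and all 6, the WT controls included, had undergone surgical denervation of BAT and were then exposed to 10 °C for 8 h. The sST2-KO mice carry a germline CRISPR/Cas9 deletion of the stretch of Il1rl1 that holds the stop codon of sST2, the soluble form of the IL-33 receptor. The comparison asks how the loss of this soluble factor changes the transcripts of denervated BAT in the cold. The labels number 3 libraries of whole BAT per group, and p values measure the spread between these libraries.

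Chemokines are small secreted proteins that guide leukocytes along gradients by binding G protein-coupled receptors. Ligands with neighboring first cysteines (CC) mostly attract monocytes, macrophages and lymphocytes, those of the CXC class attract neutrophils through CXCR2 or activated T and NK cells through CXCR3, and atypical receptors bind chemokines without G protein signaling and remove them. In adipose tissue the family is best known for the recruitment of macrophages, above all through Ccl2 and its receptor Ccr2. Many of the inflammatory ligands are induced through NF-kappa B, and the CXCR3 ligands through interferons.

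The promoters of 4 ligands are shown because they belong to the groups in which every gene was called and because such genes are known to be induced through kappa B or interferon-stimulated elements. The stretches are from RefSeq promoter windows (made on GRCm38.p6), and their positions are those of an exact match to GRCm39. Each runs 5′ to 3′ on the strand of the gene and ends at the base before the RefSeq start, with 120 bases for Cxcl1 (chr5:91038984-91039103, plus strand), Cxcl2 (chr5:91051638-91051757, plus strand) and Cxcl3 (chr5:90933840-90933959, plus strand), and 220 bases for Cxcl10 (chr5:92496749-92496968, minus strand). Capitals in the first 3 mark matches to the kappa B element on either strand, and in Cxcl3 also the letters TATAAA. In Cxcl10 they mark a match to the interferon-stimulated element and one to the AP-1 letters TGANTCA.
Cxcl1: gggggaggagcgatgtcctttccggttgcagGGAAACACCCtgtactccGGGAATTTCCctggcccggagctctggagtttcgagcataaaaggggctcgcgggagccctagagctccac
Cxcl2: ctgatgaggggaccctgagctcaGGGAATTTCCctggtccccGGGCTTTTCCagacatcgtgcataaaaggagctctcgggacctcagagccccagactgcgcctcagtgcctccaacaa
Cxcl3: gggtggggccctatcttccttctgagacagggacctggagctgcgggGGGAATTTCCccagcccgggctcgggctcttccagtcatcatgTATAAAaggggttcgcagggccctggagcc
Cxcl10: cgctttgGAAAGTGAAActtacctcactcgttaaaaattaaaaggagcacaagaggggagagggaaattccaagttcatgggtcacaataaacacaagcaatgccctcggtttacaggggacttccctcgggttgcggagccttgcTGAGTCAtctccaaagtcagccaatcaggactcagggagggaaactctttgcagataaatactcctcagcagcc
Cxcl1 and Cxcl2 each held 2 kappa B matches in this stretch and Cxcl3 held 1. The search covered both strands of windows of 300 bases, from 250 before to 50 after the start. The kappa B letters were found in 1.63% of 32851 RefSeq windows, the interferon-stimulated element in 3.44%, the AP-1 letters in 7.81% and TATAAA in 13.6%. A window was held for 34 of the 47 genes, and these kappa B letters were in the windows of 4 of them, namely Cxcl1, Cxcl2, Cxcl3 and Ccl9. Other forms of the kappa B element were not searched, so a stretch without a match, as in Cxcl10, may still hold one. A match describes these letters and is not evidence of a bound site. No other motif overlapped the matches that are capitalized.

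Library totals ranged from 8159442 to 12874809 counts, of which the 47 genes took 0.0891% to 0.164% in WT and 0.325% to 0.606% in sST2-KO. The targeted gene, Il1rl1, was counted 19, 19 and 6 times in the WT libraries and 55, 69 and 142 times in the sST2-KO libraries. These counts add up the soluble form and the membrane receptor ST2L, so they do not check the genotype. Levels are given below as CPM, counts brought to a common library size with edgeR's TMM factors, always in the order of replicates 1, 2 and 3. Markers of the labelled tissue were present in all libraries but lower in sST2-KO, where the 7 brown adipocyte markers summed to 348 to 1787 CPM against 7935 to 14722 CPM in WT. Skeletal muscle markers summed to 3319 to 14129.6 CPM in sST2-KO, to 1166 CPM in WT replicate 1 and to 19.7 and 6.16 CPM in the other WT libraries. In whole tissue, a change in the number of cells of a type and a change in RNA per cell cannot be told apart.

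The chemokine family was shifted upward in the BAT of sST2-KO mice. Of the 47 genes, 38 passed edgeR's filter on low counts (26 ligands and 12 receptors) and were tested among 14542 genes by its quasi-likelihood test with Benjamini-Hochberg adjustment. Calls required an adjusted p below 0.05 together with a change of more than 2-fold. With these thresholds 21 of the 38 were higher, or 55.3%, and 1 was lower, where 9.04% of all tested genes were higher and 7.10% were lower. The median log2 fold change of the 38 was 1.88 (quartiles 0.75 and 3.16) against 0.03 for all genes tested, and 33 of the 38 had a positive value. In 21 of the 38, or 55.3%, each sST2-KO library was above each WT library, against 21.9% of all genes. These were the same 21 genes that were called higher, so this adds no support beyond the calls. In 3 genes (Ackr4, Cxcl14 and Ccl27a) each sST2-KO library was below each WT library, against 19.6% of all genes, and in 14 the groups overlapped. Without adjustment, 26 of the 38 had p under 0.05. For a single value, the two-sided exact permutation test has a smallest p of 0.1 with 3 libraries per group.

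All 22 calls were lost without WT replicate 3. With that library left out, 0 members were called by edgeR's test, with adjusted p values of 0.0563 to 0.126, although all 22 kept their direction and had an unadjusted p under 0.05. Leaving out WT replicate 2 removed 14 of the 22 calls, WT replicate 1 and sST2-KO replicate 3 each removed 6, and sST2-KO replicates 1 and 2 each removed 2. The size of the changes was less affected, since the 22 genes had median log2 fold changes between 2.78 and 3.03 in these 6 fits, against 2.81 with all libraries. Calls fell over all genes tested as well, from 1315 higher and 1033 lower to 36 and 22 without WT replicate 3. Without WT replicate 2 they were 391 and 480.

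**Figure D1:**
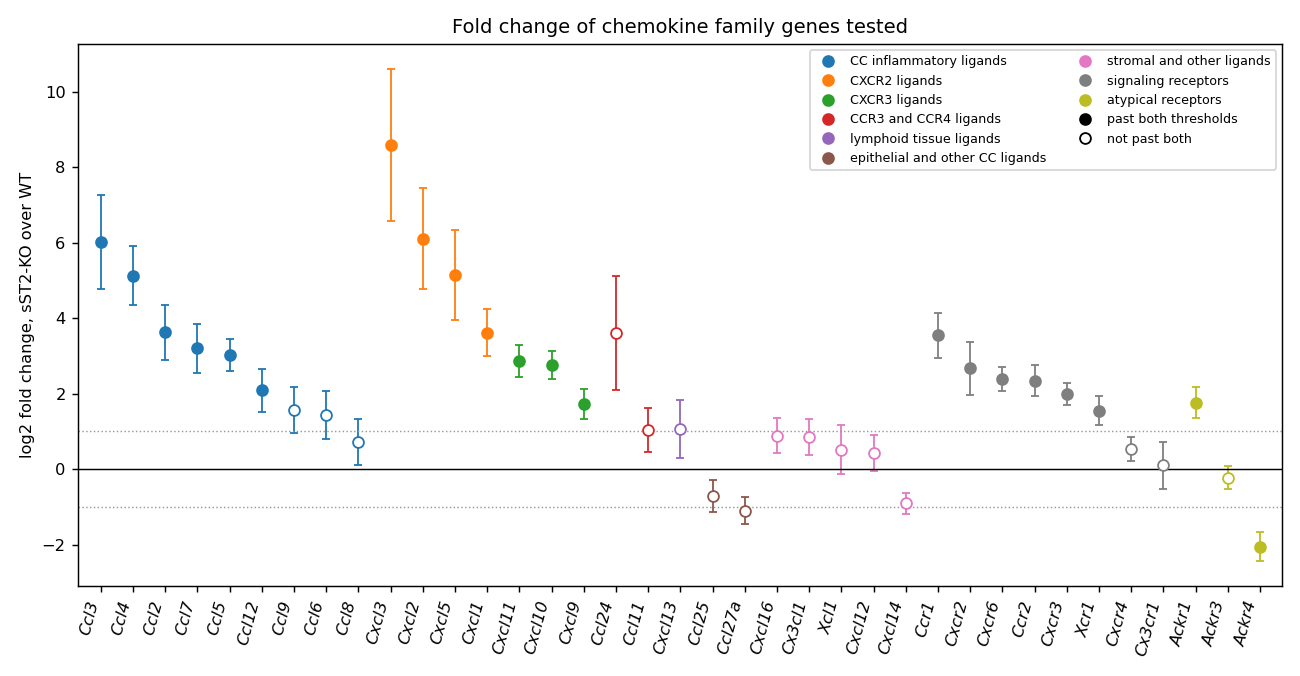
Log2 fold change (sST2-KO over WT) of 37 of the chemokine family genes tested, grouped by role (color), from edgeR with all 6 libraries. Bars are standard errors, filled points passed both thresholds and dotted lines mark a 2-fold difference. All 4 CXCR2 ligands and all 3 CXCR3 ligands are filled and above 0, and Ackr4 is the filled point below 0.

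Inflammatory CC ligands, which bind receptors such as CCR1 and CCR2 on monocytes, macrophages and lymphocytes, were higher in 6 of 9 genes, with a median log2 fold change of 3.03. Ccl2, the main attractant of CCR2-bearing monocytes, was at 13.9, 17.7 and 3.08 CPM in WT and 51.0, 178 and 203 CPM in sST2-KO. It rose from 11.6 ± 7.59 to 144 ± 81.5 CPM (SD, n = 3), and the log2 fold change was 3.62 ± 0.73 (SE, adjusted p = 0.0190). Ccl7, its neighbor on chromosome 11 and another CCR2 ligand, had nearly the same levels, 22.5, 17.2 and 6.03 CPM in WT and 46.7, 178 and 199 CPM in sST2-KO, and a log2 fold change of 3.20 ± 0.65 (SE, adjusted p = 0.0198). In both genes sST2-KO replicate 1 was well below replicates 2 and 3 but above every WT library. Ccl12, the third CCR2 ligand, was less abundant, at 6.80, 5.78 and 1.60 CPM in WT and 10.01, 24.6 and 27.0 CPM in sST2-KO, with a log2 fold change of 2.09 ± 0.57 (SE, adjusted p = 0.0406).

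Ccl3 and Ccl4 had the largest fold changes of the CC group. Ccl3, a CCR1 ligand made by activated macrophages, had 22, 14 and 1 counts in WT and 311, 137 and 2036 counts in sST2-KO. Its log2 fold change was 6.02 ± 1.26 (SE, adjusted p = 0.0206). Ccl4, a macrophage and T cell chemokine encoded beside it, was at 2.79, 3.45 and 0.739 CPM in WT and 34.6, 49.1 and 167 CPM in sST2-KO, with a log2 fold change of 5.12 ± 0.78 (SE, adjusted p = 0.0136). For both, replicate 3 was the highest of the sST2-KO libraries, and it was 10.6 times the mean of the other two for Ccl3 and 3.99 times for Ccl4. Without this library the log2 fold changes were 3.95 and 4.12, and both stayed past the thresholds. Ccl5, which is made by activated T and NK cells as well as macrophages, had more even values, 6.33, 8.68 and 12.4 CPM in WT and 51.7, 51.5 and 121 CPM in sST2-KO, and a log2 fold change of 3.03 ± 0.43 (SE, adjusted p = 0.0133).

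The most abundant members of the group by CPM, Ccl6 and Ccl9, did not pass the test. These CCR1 ligands of myeloid cells were at 258, 112 and 107 CPM (Ccl6) and 159.5, 86.1 and 73.5 CPM (Ccl9) in WT. In sST2-KO they were at 154, 309 and 832 and 126, 202 and 622 CPM, so that the groups overlapped, and the log2 fold changes were 1.44 ± 0.64 (SE, adjusted p = 0.148) and 1.57 ± 0.60 (SE, adjusted p = 0.105). Without sST2-KO replicate 3 they were 0.54 and 0.62. Ccl8 likewise overlapped, with a log2 fold change of 0.72 ± 0.60 (SE, adjusted p = 0.427), which became -0.18 without sST2-KO replicate 3. In all 9 CC genes that replicate was the highest library of its group. The 9 genes summed to 575, 312 and 244 CPM in WT and 538, 1087 and 2585 CPM in sST2-KO, so that the groups overlapped. The 10 macrophage and monocyte markers summed to 570.3 to 833 CPM in WT and 1360, 1185 and 5329 CPM in sST2-KO. Their sum was highest in the same library but lowest in sST2-KO replicate 2, and Lyz2 alone made 3373 CPM of the highest. Of the 10 markers 9 had a positive log2 fold change and 3 were called higher, while Cd163 had -1.26. At an unadjusted p under 0.05, 6 were higher and 1 lower, and the alternative tool DESeq2 called 6 higher and 0 lower. Their part in the CC ligands was not tested. Without WT replicate 3 the adjusted p values of the 6 called genes were 0.0563 to 0.0992. Without WT replicate 2 the calls of Ccl3, Ccl7 and Ccl12 were lost (adjusted p = 0.0709, 0.0642 and 0.0925), and that of Ccl12 also without WT replicate 1, sST2-KO replicate 2 or sST2-KO replicate 3 (0.0602, 0.0942 and 0.1004). Without WT replicate 1 the log2 fold change of Ccl3 was 6.66.

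The CXCR2 ligands, which attract neutrophils, rose in 4 of 4 genes, with a median log2 fold change of 5.62, the highest among the role groups. These are the genes whose promoter stretches with kappa B matches are printed above, together with Cxcl5. Cxcl1 was at 2.61, 8.40 and 1.48 CPM in WT and 65.2, 30.4 and 60.2 CPM in sST2-KO, a rise from 4.16 ± 3.71 to 51.9 ± 18.8 CPM (SD, n = 3) with a log2 fold change of 3.61 ± 0.63 (SE, adjusted p = 0.0154). Cxcl2 was at 2.23, 3.54 and 0.739 CPM in WT and 43.7, 16.6 and 404 CPM in sST2-KO, a log2 fold change of 6.11 ± 1.33 (SE, adjusted p = 0.0231). Cxcl1 was about as high in sST2-KO replicate 1 as in replicate 3, whereas the Cxcl2 level of replicate 3 was 13.4 times the mean of the other two.

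Cxcl3 was close to undetected in WT, with 1, 2 and 0 counts, and had 65, 28 and 1252 counts in sST2-KO. The ratio of the pooled levels was 402, with a 95% counting interval from 137 to 1952 that leaves out the spread between mice. The fitted log2 fold change, which at so few WT counts depends on the prior count, was 8.60 ± 2.02 (SE, adjusted p = 0.0282). Cxcl5, a CXCR2 ligand also made by epithelium and stroma, had 8, 14 and 0 counts in WT and 55, 128 and 592 counts in sST2-KO, and a log2 fold change of 5.13 ± 1.19 (SE, adjusted p = 0.0275). In both genes all sST2-KO libraries were above all WT libraries and replicate 3 was far above the rest. Without this replicate the log2 fold changes were 3.74 for Cxcl2, 5.12 for Cxcl3 and 3.69 for Cxcl5, and the last lost its call (adjusted p = 0.0524). The 9 neutrophil markers summed to 31.3 to 157 CPM in WT and 157 to 754 CPM in sST2-KO, with the lowest sST2-KO value in replicate 2 and the highest WT value in replicate 3, and 2 of the 9 were called higher. All 9 had a positive log2 fold change, 6 were higher at an unadjusted p under 0.05, and DESeq2 called 5 higher. Their part in the CXCR2 ligands was not tested. The calls of Cxcl2, Cxcl3 and Cxcl5 were lost without any 1 of the WT libraries (adjusted p = 0.0654 to 0.110), and that of Cxcl1 without WT replicate 3 (adjusted p = 0.0618). Without WT replicate 2 the log2 fold changes of Cxcl1, Cxcl3 and Cxcl5 were larger, at 4.64, 9.39 and 5.93.

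The CXCR3 ligands, which interferons induce and which attract activated T and NK cells, rose in 3 of 3 genes. Cxcl9 was the most abundant chemokine by mean CPM in both groups, at 484, 315 and 223 CPM in WT and 1585, 1034 and 761 CPM in sST2-KO. It rose from 341 ± 132 to 1127 ± 419 CPM (SD, n = 3), and the log2 fold change was 1.72 ± 0.40 (SE, adjusted p = 0.0267). Cxcl10, with the interferon-stimulated element in the promoter stretch above, was at 32.2, 25.4 and 14.5 CPM in WT and 221, 159.8 and 108 CPM in sST2-KO, a log2 fold change of 2.75 ± 0.38 (SE, adjusted p = 0.0126). Cxcl11 was low, with 8, 6 and 4 counts in WT and 59, 54 and 31 in sST2-KO, and its log2 fold change was 2.87 ± 0.43 (SE, adjusted p = 0.0136). In C57BL/6 mice this gene is known to carry a frameshift, so its counts speak of RNA alone.

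The libraries were ordered differently here than for the CC ligands and 3 of the 4 CXCR2 ligands, which were highest in sST2-KO replicate 3. The remaining CXCR2 ligand, Cxcl1, was highest in sST2-KO replicate 1. Among sST2-KO libraries Cxcl9 and Cxcl10 were highest in replicate 1 and lowest in replicate 3, and Cxcl11 was highest in replicate 2. Markers of the cells that bear CXCR3 were also higher, with 7 of 8 tested T cell markers called and a sum of 10.6 to 14.7 CPM in WT and 93.7 to 140.4 CPM in sST2-KO, and 5 of 6 NK cell markers called and a sum of 19.5 to 40.2 CPM in WT and 168 to 306 CPM in sST2-KO. Their part in the CXCR3 ligands was not tested. Cxcl10 shares 133 exonic bases with Art3 on the opposite strand, which had a log2 fold change of -0.10. Cxcl11 shares 1582 exonic bases with the processed pseudogene Gm2673 on the opposite strand. The library kit does not mark the strand, so reads from overlapping genes cannot be told apart. Without WT replicate 3 the adjusted p values were 0.0563 to 0.106, and the call of Cxcl9 was also lost without WT replicate 2 or sST2-KO replicate 1 (adjusted p = 0.0886 and 0.0534).

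**Figure D2:**
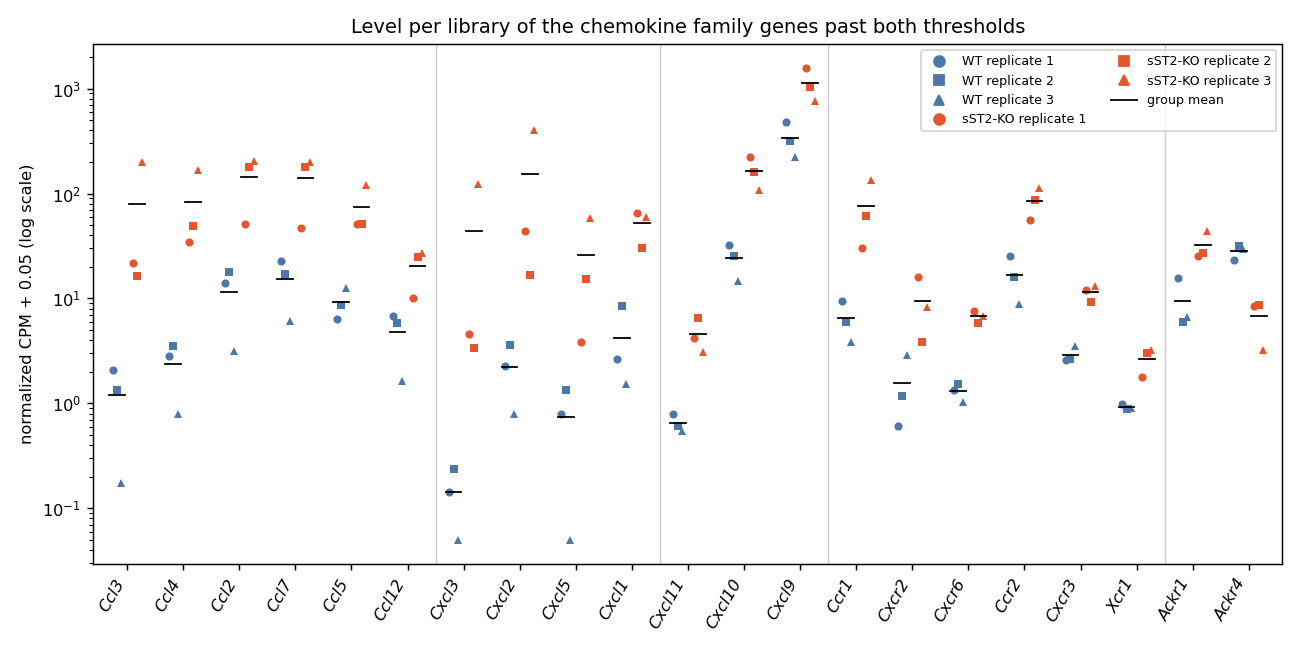
Level of 21 called genes in each library, as normalized CPM with 0.05 added on a log scale, grouped by role (CC ligands, CXCR2 ligands, CXCR3 ligands, signaling receptors, atypical receptors). Points are libraries, symbols give the replicate and bars are group means. Most genes called higher have their highest library in sST2-KO replicate 3, whereas Cxcl9 and Cxcl10 are highest in replicate 1.

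The eotaxins and the lymphoid ligand did not pass the thresholds, with 1 of 3 at an unadjusted p under 0.05 and 0 called by edgeR or by DESeq2, which was run as an alternative. Ccl11 and Ccl24, the eotaxins that attract eosinophils through CCR3, were uneven among sST2-KO mice. Ccl11 was at 34.3, 30.2 and 27.7 CPM in WT and 14.1, 94.2 and 80.8 CPM in sST2-KO (log2 fold change 1.03 ± 0.59 SE, adjusted p = 0.249), so that replicate 1 was below and replicates 2 and 3 above every WT library. Ccl24 had 3, 23 and 2 counts in WT and 1, 227 and 77 in sST2-KO (log2 fold change 3.61 ± 1.52 SE, adjusted p = 0.132), again with replicate 1 lowest. The log2 value of Ccl24 was 5.36 without WT replicate 2 and 2.01 without sST2-KO replicate 2, in neither case past the thresholds. Both eotaxins passed them when sST2-KO replicate 1 was left out, with log2 fold changes of 1.51 (adjusted p = 0.0180) and 4.21 (adjusted p = 0.0343). The eosinophil markers summed to 0.862 to 3.73 CPM in WT and 1.67 to 4.33 CPM in sST2-KO, with 1 of 5 abundant enough to be tested and not called. Cxcl13, the B cell attractant of lymphoid follicles, was at 58.7, 19.1 and 54.4 CPM in WT and 181, 15.9 and 78.2 CPM in sST2-KO, with overlap and a log2 fold change of 1.06 ± 0.78 (SE, adjusted p = 0.364), which was 0.089 without sST2-KO replicate 1. B cell markers were scarce, at 0.931 to 2.95 CPM in WT and 2.72 to 5.77 CPM in sST2-KO, and neither of those tested passed, by edgeR or DESeq2, also without adjustment.

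Ligands of stroma and epithelium stayed apart from the inflammatory groups, with 0 of 7 called by edgeR or DESeq2 and 2, Cxcl14 and Ccl27a, at an unadjusted p under 0.05. Cxcl12, the CXCR4 ligand of stromal cells that retains leukocytes in tissue, was at 88.2, 93.3 and 104 CPM in WT and 52.5, 100.3 and 231 CPM in sST2-KO, a log2 fold change of 0.43 ± 0.48 (SE, adjusted p = 0.557). Without sST2-KO replicate 3 its log2 fold change was -0.32. Cxcl14, known as a chemokine secreted by active brown fat, was lower in every sST2-KO library, at 62.9, 44.8 and 83.7 CPM against 98.3, 112 and 147 CPM in WT, but its log2 fold change of -0.90 ± 0.27 (SE, adjusted p = 0.0561) missed both thresholds. It passed them when sST2-KO replicate 3 was left out, with -1.16 (adjusted p = 0.0412), as did Cx3cl1 in the other direction, with 1.22 (adjusted p = 0.0470). Beside it, 6 of 7 brown adipocyte markers were called lower, and their part in the level of Cxcl14 was not tested. Cxcl16 and Cx3cl1, the membrane-bound ligands of CXCR6 and CX3CR1, had log2 fold changes of 0.89 and 0.84 with overlapping groups (0.14 for Cxcl16 without sST2-KO replicate 3), and Xcl1, the ligand of XCR1 on cross-presenting dendritic cells, had 0.51. Cxcl16 overlaps Med11 and Zmynd15 on the opposite strand, which had 0.47 and 0.10. Ccl27a and Ccl25, which attract lymphocytes to skin and to gut and thymus, had -1.10 (adjusted p = 0.0633) and -0.71 (adjusted p = 0.265). Their opposite-strand neighbors Il11ra1 and Elavl1 had -0.33 and -0.22, and reads of Ccl27a could be split with its near-identical copy Ccl27b, which had 0 counts.

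Receptors rose with the inflammatory ligands, as 7 of 9 tested signaling receptors were called higher. Ccr1, the receptor of Ccl3, Ccl5, Ccl6 and Ccl9 on myeloid cells, was at 9.50, 5.88 and 3.82 CPM in WT and 30.1, 61.3 and 135 CPM in sST2-KO. It rose from 6.40 ± 2.88 to 75.5 ± 53.8 CPM (SD, n = 3), and the log2 fold change was 3.54 ± 0.60 (SE, adjusted p = 0.0150). Ccr2, the receptor that brings monocytes out of the blood, was at 25.1, 16.0 and 8.86 CPM in WT and 55.3, 86.7 and 114 CPM in sST2-KO, and its log2 fold change was 2.35 ± 0.42 (SE, adjusted p = 0.0159). In both receptors the sST2-KO libraries stood in the same order, with replicate 1 lowest and replicate 3 highest, and WT replicate 3 was the lowest library.

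Receptors of neutrophils and lymphocytes did not share this order. Cxcr2, the receptor of the neutrophil attractants, was at 0.559, 1.12 and 2.83 CPM in WT and 16.0, 3.79 and 8.27 CPM in sST2-KO, a log2 fold change of 2.67 ± 0.71 (SE, adjusted p = 0.0378). Its highest sST2-KO library was replicate 1 and its highest WT library replicate 3, which came close to the 3.79 CPM of sST2-KO replicate 2. Cxcr3, the receptor of Cxcl9, Cxcl10 and Cxcl11 on activated T and NK cells, was at 2.51, 2.61 and 3.45 CPM in WT and 11.9, 9.24 and 12.997 CPM in sST2-KO, with tight groups and a log2 fold change of 1.99 ± 0.28 (SE, adjusted p = 0.0133). Cxcr6, the receptor of Cxcl16 on resident T and NK cells, was at 1.30, 1.49 and 0.985 CPM in WT and 7.51, 5.80 and 6.79 CPM in sST2-KO, a log2 fold change of 2.39 ± 0.32 (SE, adjusted p = 0.0122). For Cxcr6 the spread within each group was below 1 CPM, at 1.26 ± 0.257 and 6.70 ± 0.857 CPM (SD, n = 3). Xcr1, which marks cross-presenting dendritic cells, had 10, 9 and 7 counts in WT and 25, 25 and 32 in sST2-KO and a log2 fold change of 1.55 ± 0.39 (SE, adjusted p = 0.0328). It shares 1071 exonic bases with the noncoding RNA gene Gm57030 on the opposite strand.

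Cxcr4 and Cx3cr1 did not pass the test. Cxcr4, the widely expressed receptor of Cxcl12, was at 11.9, 8.49 and 5.29 CPM in WT and 12.03, 11.7 and 13.9 CPM in sST2-KO (log2 fold change 0.54 ± 0.32 SE, adjusted p = 0.263). Cx3cr1, a receptor of patrolling monocytes and resident macrophages, was at 5.31, 2.71 and 1.97 CPM in WT and 6.61, 2.72 and 1.28 CPM in sST2-KO (log2 fold change 0.10 ± 0.63 SE, adjusted p = 0.928) and turned negative in the fits without WT replicate 2, WT replicate 3 or sST2-KO replicate 1. Without WT replicate 3 the adjusted p values of the 7 called receptors were 0.0591 to 0.126. Without WT replicate 2 the calls of Ccr1, Ccr2, Cxcr2 and Xcr1 were lost (adjusted p = 0.0502 to 0.113), without sST2-KO replicate 3 those of Cxcr2 and Xcr1 (0.0648 to 0.0957), and without WT replicate 1 those of Cxcr2 and Xcr1 (0.0696 to 0.0855). The call of Cxcr2 was also lost without sST2-KO replicate 1 (0.0838, log2 fold change 2.03) and that of Xcr1 without sST2-KO replicate 2 (0.0883). Without WT replicate 3, Cxcr2 was at 3.46 on the log2 scale. Ccr1 had a value of 2.82 on the log2 scale without sST2-KO replicate 3.

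Of the 3 atypical receptors tested, 1 was called higher and 1 lower. Ackr1, which carries chemokines across venules and binds them on red cells, was at 15.6, 5.88 and 6.65 CPM in WT and 25.4, 27.0 and 43.5 CPM in sST2-KO, a log2 fold change of 1.76 ± 0.42 (SE, adjusted p = 0.0288). Of the 6 endothelial markers, 1 was called higher and 1 lower, with sums of 939 to 1177 CPM in WT and 929.8 to 1439.7 CPM in sST2-KO, while all 5 erythrocyte markers were called lower. Ackr1 shares 361 exonic bases with Cadm3, which had a log2 fold change of -0.07. Ackr4, which removes Ccl19, Ccl21 and Ccl25, was the only member called lower, at 23.0, 31.5 and 29.8 CPM in WT and 8.41, 8.65 and 3.15 CPM in sST2-KO, a log2 fold change of -2.06 ± 0.39 (SE, adjusted p = 0.0168). It shares 1663 exonic bases on the opposite strand with Acad11, an enzyme of fatty acid oxidation that fell to a like degree, from 191 ± 22.0 to 49.5 ± 22.5 CPM (SD, n = 3), with a log2 fold change of -1.95 ± 0.37 (SE, adjusted p = 0.0176). Counts of this pair cannot be assigned to either strand. Ackr3, the scavenger of Cxcl12, was the most abundant atypical receptor and overlapped between the groups, at 89.3, 116 and 142 CPM in WT and 61.8, 119 and 116 CPM in sST2-KO (log2 fold change -0.23 ± 0.30 SE, adjusted p = 0.618). Without WT replicate 3 the adjusted p values of Ackr1 and Ackr4 were 0.112 and 0.0693, without WT replicate 2 they were 0.0821 and 0.0524, and without sST2-KO replicate 3 that of Ackr1 was 0.0712.

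The 9 members below edgeR's filter were left without a test. Ackr2, the scavenger of inflammatory CC chemokines, had 37, 8 and 20 counts in WT and 4, 4 and 6 in sST2-KO. Ccl22, a CCR4 ligand of dendritic cells, had 1, 1 and 0 counts in WT and 2, 2 and 15 in sST2-KO, and Ccl17, which binds the same receptor, had 1, 2 and 2 and 9, 5 and 3. For Ackr2 each sST2-KO library was below each WT library in CPM, and for Ccl17 and Ccl22 each was above, at levels where a few counts decide the order. Ccr7, which leads dendritic cells and T cells to lymph nodes, had 3, 5 and 8 counts in WT and 12, 15 and 25 in sST2-KO. Ccr9, the receptor of Ccl25, had 4, 1 and 0 and 9, 3 and 10, and overlaps Slc6a20a on the opposite strand. Ccr10, Cxcr5 and Ccl28 had 12 counts or fewer in each library. All 10 counts of Ccl21a, a lymphatic ligand of Ccr7 with near-identical copies, were in sST2-KO replicate 2. Of the 15 rows under the minimum of 10 counts, 5 had no count and the others summed to at most 8, among them Ccr3, the eotaxin receptor, with 7, and Cxcr1, Ccr6 and Cxcl15.

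The rise of the called genes was uneven over the libraries. Of the 21 genes called higher, 15 had their highest value in sST2-KO replicate 3, 5 in replicate 1 and 1 in replicate 2, and 16 had their lowest WT value in WT replicate 3. In 4 of them (Ccl3, Cxcl2, Cxcl3 and Cxcl5) replicate 3 exceeded 5 times the mean of replicates 1 and 2. When it was left out, 16 of the 22 calls held, with log2 fold changes from -1.73 to 5.12. Summed over the 30 ligands, levels were 1423, 979 and 858 CPM in WT and 2837, 2702 and 4682 CPM in sST2-KO. The 17 receptors summed to 219, 209 and 222 CPM in WT and 279.9, 441 and 636 CPM in sST2-KO. Neither sum overlapped between the groups, and the ligand sum was alike in sST2-KO replicates 1 and 2.

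**Figure D3:**
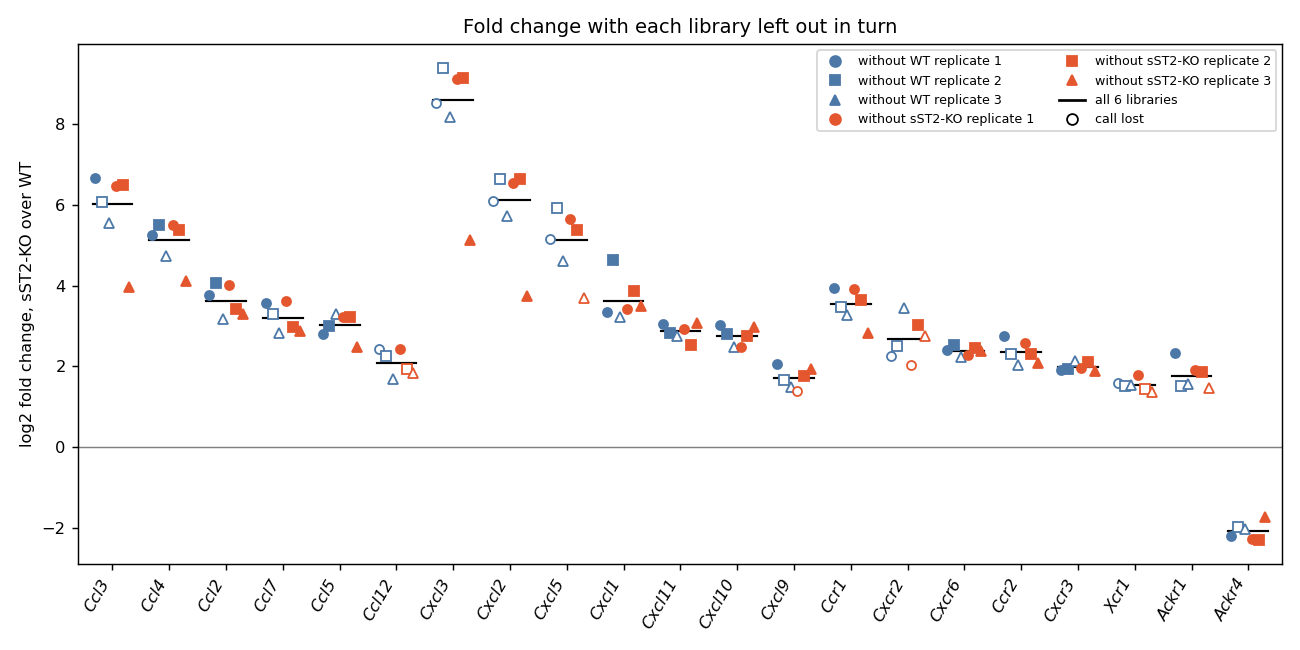
Log2 fold change (sST2-KO over WT) of 21 called genes with each of the 6 libraries left out in turn. Black bars are the values with all libraries, and open symbols are fits in which the gene was no longer called, which includes every gene without WT replicate 3. Every value keeps its sign, and the widest shift is that of Cxcl3, from 8.60 to 5.12 without sST2-KO replicate 3.

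Beside the family, markers of leukocytes were called to differing extents. For the marker counts here and above, the shares over all tested genes were 9.04% called higher and 7.10% lower. Ptprc (CD45), present on all leukocytes, was at 40.0, 30.5 and 24.3 CPM in WT and 125, 173 and 282 CPM in sST2-KO and was called higher (log2 fold change 2.61 ± 0.35 SE, adjusted p = 0.0123). Its libraries stood in the order of Ccr1 and Ccr2. Dendritic cell markers were higher in 2 of 5 tested, one of them Xcr1 itself, with sums of 48.3 to 66.5 CPM in WT and 49.0 to 66.9 CPM in sST2-KO. These sums hide opposite changes, as 4 of the 5 had a positive log2 fold change. Zbtb46, the largest part in WT, averaged 45.5 CPM there and 23.2 CPM in sST2-KO (-0.97, not called). Itgax averaged 5.12 CPM in WT and 19.8 CPM in sST2-KO. By edgeR's test 0 of 5 mast cell, 3 platelet, 4 lymphatic endothelial, 7 fibroblast and 7 skeletal muscle markers tested were called. At an unadjusted p under 0.05, 3 mast cell and 5 muscle markers were higher and 1 lymphatic marker lower, and DESeq2 called 4, 1 and 1 of them in these directions. Among markers of parenchyma and nerve, 1 of 5 adipocyte markers and 1 of 3 Schwann cell and neuron markers were called lower. No marker was at 0 counts in all 6 libraries. The part of these cell types in the family's change was not tested.

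**Figure D4:**
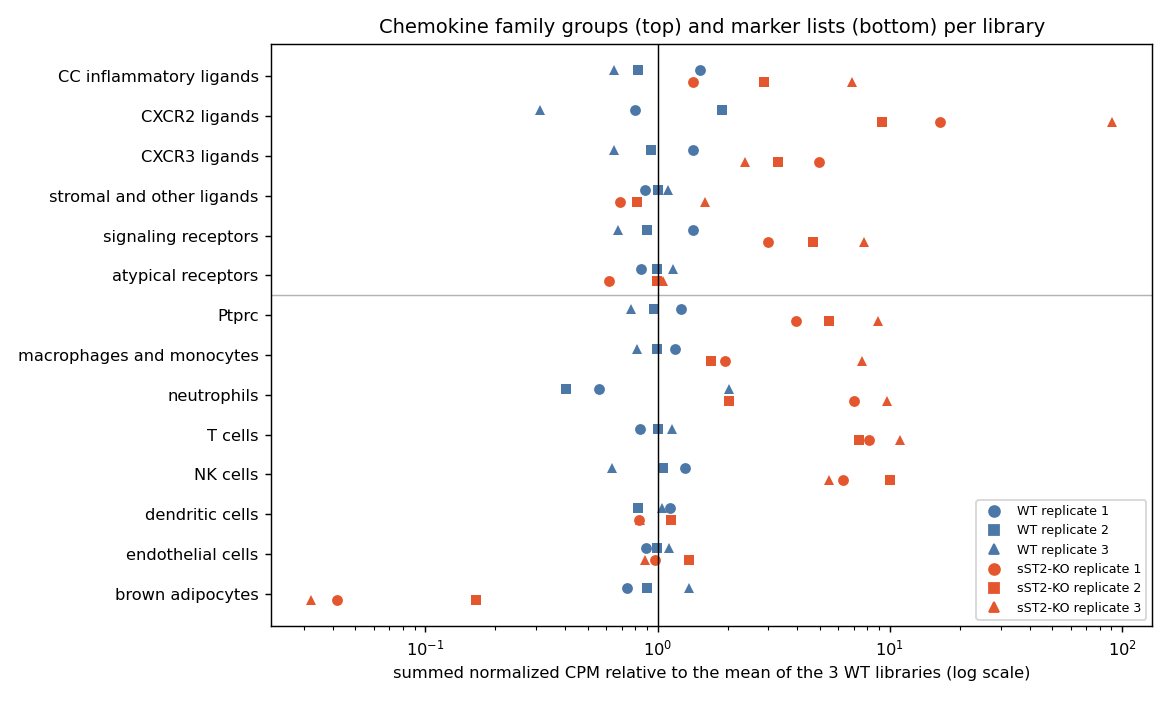
Summed normalized CPM of 6 chemokine family groups (above the line) and 8 marker lists (below the line) in each library, relative to the mean of the 3 WT libraries, on a log scale. In sST2-KO the CXCR2 and CXCR3 ligands, the signaling receptors and Ptprc lie above all WT libraries. So do the macrophage and monocyte, T cell and NK cell markers. The CC ligands, stromal ligands and atypical receptors overlap with WT, and the brown adipocyte markers lie below.

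Relative to Ptprc, most of the rise was no longer seen in every library. This ratio, CPM per 1000 CPM of Ptprc, was chosen after the values were known and is a description with no test. Of all tested genes, 0.440% had the ratio higher in each sST2-KO library than in each WT library and 91.3% had it lower, with Ptprc itself called higher. Of the 38 chemokine family genes, 4 were higher, 16 were lower and 18 overlapped. The 4 were Ccl3, Ccl4, Cxcl3 and Ccr1. The ratio of Ccl3 was 51.2, 42.8 and 5.08 in WT and 173, 93.6 and 710.4 in sST2-KO, and that of Ccl4 was 69.8, 113 and 30.5 and 277, 284 and 593. The ratio of Ccr1 was 237, 193 and 157 and 241, 354 and 478, so that WT replicate 1 and sST2-KO replicate 1 nearly met. For Cxcl3 it was 2.33, 6.12 and 0 in WT, where it rests on 3 counts in all, and 36.2, 19.1 and 437 in sST2-KO. Among the 21 genes called higher, 16 overlapped, Cxcl9, Ccr2 and Cxcr3 among them, and Xcr1 was lower, at 13.9, 17.1 and 11.2 against 23.3, 27.5 and 35.5 in WT.

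**Figure D5:**
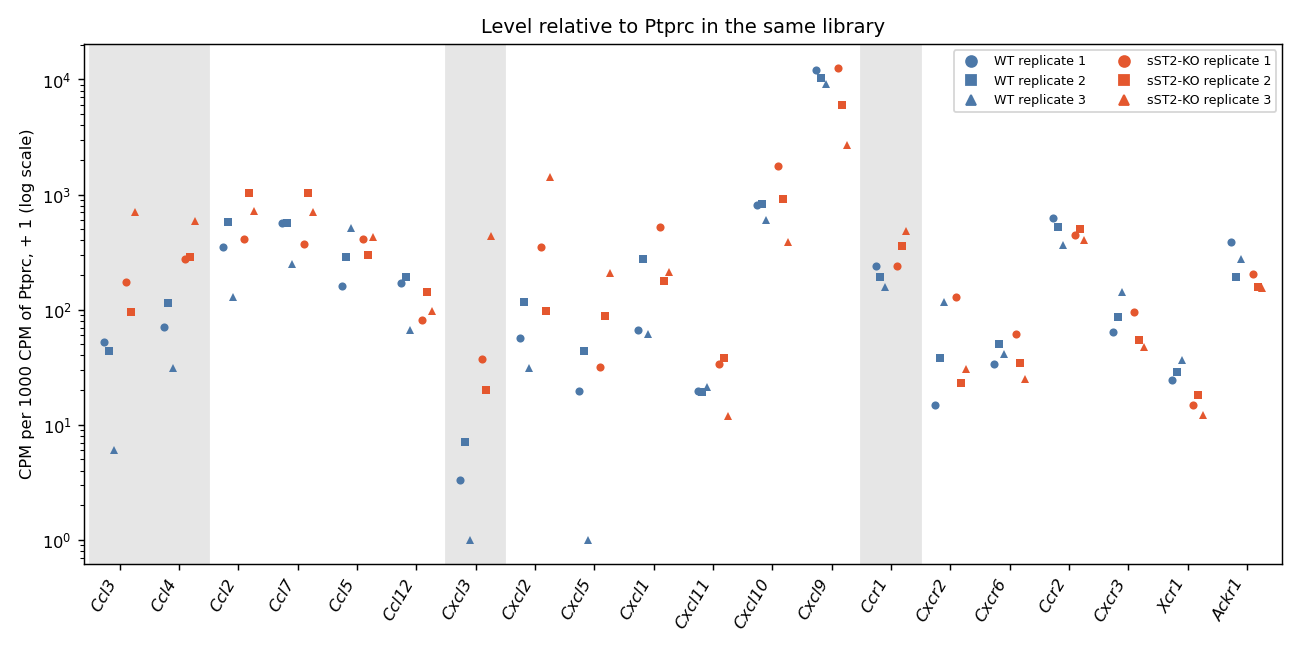
Level of 20 genes called higher per 1000 CPM of Ptprc in the same library, with 1 added, on a log scale. Shading marks Ccl3, Ccl4, Cxcl3 and Ccr1, where the 3 sST2-KO libraries lie above the 3 WT libraries. In most other genes the groups overlap.

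The makeup of the ligand pool differed for some ligands. Levels per kilobase of the canonical GENCODE transcript were used to compare genes, as a share of the summed level of the 30 ligands. In WT the largest mean shares were those of Ccl8 (20.0%), Cxcl9 (18.3%) and Ccl6 (16.8%). In sST2-KO, Cxcl9 held 20.1%, Ccl6 11.4% and Ccl8 8.19%, and Cxcl10, Ccl2 and Ccl7 reached 7.64%, 7.53% and 7.43% from 3.43%, 2.21% and 2.86%. The shares of these last 3 overlapped with WT, as that of Cxcl10 was 2.68% in sST2-KO replicate 3, below every WT library, and those of Ccl2 and Ccl7 were 3.86% and 3.56% in sST2-KO replicate 1 against 3.86% and 3.76% in WT replicate 2. The share of Cxcl9 differed widely between sST2-KO mice, from 33.7% in replicate 1 to 7.19% in replicate 3, and overlapped with WT. The share of Cxcl14 was 3.91, 6.77 and 10.7% in WT and 1.32, 0.833 and 0.783% in sST2-KO, without overlap. Shares were not tested.

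Many of the called genes lie in clusters. On chromosome 5, the CXCR2 ligands Cxcl5, Cxcl3, Cxcl1 and Cxcl2 lie within chr5:90907186-91053797 and all 4 were called higher, as were Cxcl9, Cxcl10 and Cxcl11 within chr5:92469206-92513344. On chromosome 11, Ccl2, Ccl7 and Ccl12 were called and Ccl11 and Ccl8 were not within chr11:81926397-82007625, and Ccl5, Ccl3 and Ccl4 were called and Ccl9 and Ccl6 were not within chr11:83416602-83555509. The receptor genes Cxcr6, Xcr1, Ccr1 and Ccr2, all called higher, lie close together on chromosome 9 beside Ccr9, which was not tested. Coordinates are from the GENCODE annotation on GRCm39. Within the CXCR2 cluster the log2 fold changes ran from 3.61 to 8.60.

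Many genes of a signaling list were higher as well. Its 69 genes, all tested, run from G proteins to adhesion effectors below chemokine receptors and include 9 related receptors and modulators. By edgeR's test 30 of the 69 were called higher and 0 lower, where 9.04% of all tested genes were higher and 7.10% lower. At an unadjusted p under 0.05 these counts were 36 and 1, and by DESeq2 they were 30 and 0. The median log2 fold change was 0.75, and 56 of the 69 values were positive. Without WT replicate 3 the list had 1 gene called higher, without WT replicate 2 it had 13, and with any other library left out 22 to 31.

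Among kinases, 8 of 16 were higher, with Pik3cg, the PI3K subunit coupled to chemokine receptors, at 3.45, 3.26 and 3.32 CPM in WT and 11.96, 10.9 and 23.0 CPM in sST2-KO (log2 fold change 2.19 ± 0.35 SE, adjusted p = 0.0147). Dock2, which drives leukocyte migration through Rac, was at 19.9, 14.6 and 10.8 CPM in WT and 40.8, 53.7 and 93.9 CPM in sST2-KO (log2 fold change 2.05 ± 0.36 SE, adjusted p = 0.0158), and Rac2, the Rac of blood cells, had 2.51 ± 0.32 (SE, adjusted p = 0.0120). Among adhesion effectors 4 of 8 were higher, with Itgb2, the beta chain of the leukocyte integrins, at 29.4, 37.2 and 23.6 CPM in WT and 104, 133 and 291 CPM in sST2-KO (log2 fold change 2.54 ± 0.42 SE, adjusted p = 0.0148). G proteins and their regulators had 4 of 12 higher, with 2.23 for Rgs1, which dampens chemokine receptor signals, and 0.69 (adjusted p = 0.0671) for Gnai2, the main G protein of these receptors. The desensitization genes had 2 of 6 higher, among them Arrb2 (1.24), and phospholipase and PKC genes 3 of 4, among them Plcb2 (1.63). Of 9 related receptors and modulators outside the symbol rule, 2 were higher. Ccrl2, a non-signaling receptor that presents chemerin, was at 11.8, 11.6 and 7.88 CPM in WT and 25.2, 45.1 and 61.6 CPM in sST2-KO (log2 fold change 2.07 ± 0.35 SE, adjusted p = 0.0151), and Rarres2, which encodes chemerin itself, had 1.52 ± 0.28 (SE, adjusted p = 0.0168). The platelet chemokines Pf4 and Ppbp had 0.98 and 0.83 and were not called.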

How the data were processed

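RNA-seq was performed on BAT from 3 WT and 3 sST2-KO mice. The authors aligned 150 bp paired-end reads to mm39 with HISAT2 2.2.1 (versions as in the submitters' processing notes) and counted them per gene with htseq-count. They deposited raw counts per gene symbol, without normalization. The annotation and strand setting of the counting are not given in the sources used here.

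Groups and replicate numbers came from the sample titles. Counts were fitted with edgeR 4.0.16 in R 4.3.3 (filterByExpr, TMM, glmQLFit and glmQLFTest, sST2-KO against WT, no covariate), and p values of the 14542 genes tested were adjusted by Benjamini and Hochberg's method. The study's methods name DESeq2, and DESeq2 1.42.0 was an alternative. Standard errors are the log2 fold change divided by the square root of F. CPM used the TMM-scaled library sizes. Every family member could be named, with full statistics for those called and for the most abundant of each role group, and other genes came from lists of signaling genes and cell type markers. The members and lists were chosen with earlier results of these data known. The steps were tested on simulated data. Pairs of libraries within a group gave chi-square values of 36.6 to 104 for each degree of freedom, far above sampling noise, so all 6 were kept as separate replicates. Further alternatives were a replicate block, each library left out in turn, scaling by RLE factors or by total counts, robust estimation, filtering at 10 counts in every library or not at all, and calls without the minimum fold or without adjustment. Coordinates and overlaps are from GENCODE M39 on GRCm39, and all 47 members matched by symbol. A few genes are counted in the totals and are not reported by name here.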

Additional observations from a re-analysis of the deposited data

How the results depend on the processing

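The 21 members called higher and 1 called lower kept these counts with RLE factors, total counts, robust estimation and no minimum fold. With no filter 20 were higher and 2 lower, by DESeq2 20 and 2, with at least 10 counts in every library 12 and 2 (27 of the members could then be tested), and at an unadjusted p under 0.05 with a fold above 2, 23 and 2. The additional lower gene was Ackr2 with no filter and by DESeq2 (log2 fold change -2.30 and -2.35, adjusted p = 0.0462 and 0.0226), and Ccl27a otherwise. Xcr1 lost its call with no filter, and DESeq2 called Ccl9 higher and gave no adjusted p for Ccl3 and Cxcl3. With the replicate block 0 were higher and 0 lower, with adjusted p of 0.0644 to 0.118 for the 22 genes, all of which had an unadjusted p under 0.05. The signaling list then had 0 called higher, against 30, and all genes tested had 0 higher and 0 lower, against 1315 and 1033. The labels do not say whether same-numbered libraries are paired. The correlations of their deviations from the group mean were -0.06, 0.21 and -0.31, too few values to decide this. Leaving out 1 library at a time gave 0 to 21 members higher, 0 to 2 lower and 1 to 31 signaling genes higher. The lowest counts were those without WT replicate 3.

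Signs turned only in genes that were not called. The log2 fold change of Ackr3 was 0.045 with total counts and -0.40 to 0.018 with 1 library left out. That of Cx3cr1 was -0.056 with the replicate block and -0.75 to 0.60 with 1 library left out, where it was also -0.03 and -0.17 without WT replicates 2 and 3. With 1 library left out, Xcl1 was at -0.16 to 0.99, Cxcl12 at -0.32 to 0.80 and Ccl8 at -0.18 to 1.15. The cause of these changes was not tested. Total counts moved the median log2 fold change of all genes from 0.03 to 0.29. Depth limits the 9 members with too few counts for a test.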
